A study of Homo sapiens with 9 samples.

Results

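The miR-23/27/24 clusters are a pair of paralogous microRNA (miRNA) clusters, and 10 of their mature miRNAs were followed through activation of Jurkat cells. The members were chosen by name: the 3p and 5p arms of miR-23a, miR-23b, miR-27a and miR-27b, together with miR-24-3p and miR-24-2-5p. All 10 were found in the table, which lists 2654 mature miRNAs. They occupy 11 rows because miR-24-3p is listed once under each of its hairpins. The small RNA came from Jurkat cells of clone E6-1, an established line of human leukaemic T lymphoblasts that is widely used to study signalling by the T cell receptor. One set of cells was activated for 5 h and another for 12 h on plates coated with antibody to CD3 (10 µg/mL), which carries the signal of the T cell receptor, with antibody to the costimulatory receptor CD28 in the medium (5 µg/mL). The controls were cells that had not been activated (0 h). Each time had 3 biological replicates. All cells were of this 1 clonal line, and unactivated cells kept for 5 h or 12 h were not among the samples, so activation and time in culture cannot be told apart.

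Each cluster is transcribed as one long primary RNA, from which the nucleases Drosha and then Dicer cut the hairpins and release the mature arms. A mature miRNA finds its targets mainly through its seed, bases 2 to 8 from the 5′ end, and miRNAs with the same seed repress overlapping sets of mRNAs. In T cells the clusters are known as brakes on effector programmes: in mouse T helper cells miR-27 represses the transcription factor GATA3, and miR-24 together with miR-27 restrains interleukin 4. In human cytotoxic T cells miR-23a represses BLIMP-1, a transcription factor of effector differentiation.

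The mature sequences of the 3p arms show how the members are related. They are those of RefSeq on GRCh38.p14, in which all 10 members were matched, and the seed is in capitals (the prefix hsa, for human, is left out in the text):
hsa-miR-23a-3p: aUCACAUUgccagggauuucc
hsa-miR-23b-3p: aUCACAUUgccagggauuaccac
hsa-miR-27a-3p: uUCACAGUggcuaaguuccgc
hsa-miR-27b-3p: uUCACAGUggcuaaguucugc
hsa-miR-24-3p: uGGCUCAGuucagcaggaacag

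The paralogs of a pair share their seed and differ near the 3′ end. Counted from 1 at the 5′ end, miR-23a-3p and miR-23b-3p differ by U19A over the 21 bases that both have, and miR-23b-3p is 2 bases longer. miR-27a-3p and miR-27b-3p differ by C19U alone. A read that ends before base 19 cannot be told apart between paralogs, and how such reads were assigned is not given in the sources used here. Levels of the a and b forms are uncertain to that extent. miR-24-3p is the same molecule from both clusters, and its rows under the hairpins mir-24-1 and mir-24-2 held nearly the same counts, with a largest difference of 1.59% in any library. It is therefore counted once below, from the mir-24-1 row, and its cluster of origin cannot be told apart.

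The clusters lie on different chromosomes of GRCh38, at positions that RefSeq and GENCODE 29 give alike. On the minus strand of chromosome 19, MIR23A is at chr19:13836587-13836659, MIR27A at chr19:13836440-13836517 and MIR24-2 at chr19:13836287-13836359, a span of 373 bases. All 3 lie within an exon of a noncoding gene that GENCODE 29 lists as AC020916.1. On the plus strand of chromosome 9, MIR23B is at chr9:95085208-95085304, MIR27B at chr9:95085445-95085541 and MIR24-1 at chr9:95086021-95086088, a span of 881 bases. These hairpins lie within the protein-coding gene C9orf3 (also called AOPEP). MIR23B and MIR27B are intronic in all 7 of its overlapping transcripts, and MIR24-1 overlaps an exon in 1 of them.

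**Figure D1:**
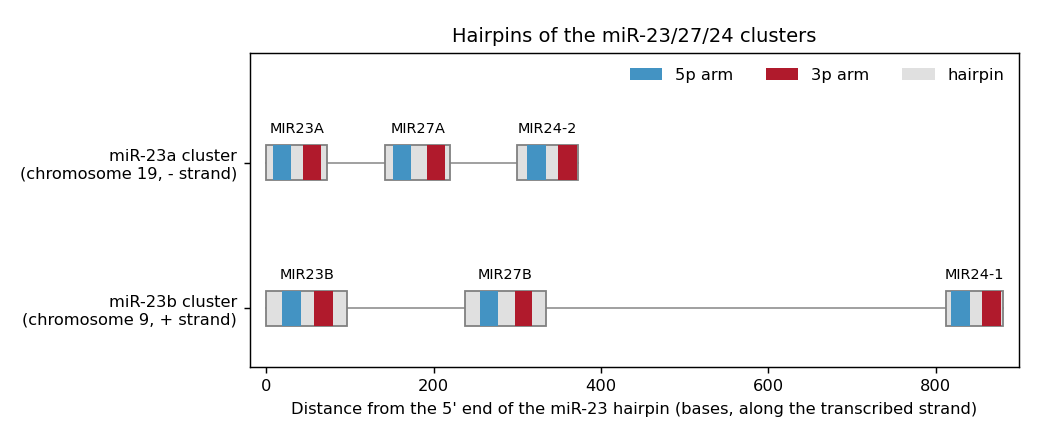
Hairpins (grey) and mature arms (5p blue, 3p red) of both clusters, drawn to scale as the distance in bases from the 5′ end of the miR-23 hairpin along the transcribed strand. Both clusters run in the order miR-23, miR-27, miR-24, over 373 bases on chromosome 19 and 881 bases on chromosome 9.

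Library totals ranged from 6631839 to 16207031 counts over all rows, and from 4232272 to 10450005 with each mature miRNA counted once. CPM is taken over the tested rows, repeated rows included, whereas the percentages of counts below take each miRNA once. Levels are given as CPM, the counts per 1000000 once libraries are scaled to each other by the trimmed mean method, and a count of 3 was worth between 0.176 and 0.471 CPM. Principal components set replicate 3 of 0 h and replicate 3 of 12 h, the 2 shallowest libraries, apart from the others. The blood and T lineage miRNAs fitted the labelled cell type, since all 6 of that list averaged at least 100 CPM. Of 14 miRNAs that mark other cell types, miR-1-3p, miR-133a-3p and miR-124-3p were at 0 in every library, and 2 averaged at least 100 CPM, the myeloid miR-223-3p (134 CPM) and the epithelial miR-200c-3p (103 CPM). The summed level of that list was 230.4 to 307 CPM at 0 h, 265 to 382 CPM at 5 h and 283 to 326 CPM at 12 h. Replicate 3 of 5 h stood out, with the liver miR-122-5p at 66.8 CPM, against at most 9.03 CPM in any other library. It also held 188 of the 233 counts of miR-145-5p, which marks smooth muscle and fibroblasts. The part of these miRNAs in the results below was not tested. A list of 4 miRNAs known to respond to T cell activation was chosen with earlier results of these data known, so it is not an independent check. Of these 4, 3 passed in the same fit at 5 h and 3 at 12 h against 0 h, where 1.57% and 1.43% of all rows did. The other, miR-155-5p, did not pass (edgeR adjusted p = 0.538 and 0.511). Its estimate was 3.57-fold at both times, with no overlap with the 0 h replicates. Among the 4, miR-132-3p, known as a target of the transcription factor CREB, was higher, averaging 3192 ± 295 CPM at 5 h and 3532 ± 136 CPM at 12 h, against 442 ± 39.9 CPM at 0 h (SD, n = 3 each; edgeR adjusted p = 3.19e-12 at 5 h and 1.48e-12 at 12 h).

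The clusters were expressed at moderate levels and were dominated by 1 member. With each mature miRNA counted once, the 10 members held 0.544% ± 0.0269 of all counts without activation, 0.569% ± 0.0320 at 5 h and 0.589% ± 0.0317 at 12 h (SD, n = 3 each). miR-27a-3p made up 62.5% ± 2.93 of the counts of the 3p arms over the 9 libraries. miR-23a-3p made up 17.3% ± 1.44, miR-24-3p 7.71% ± 0.964, miR-27b-3p 6.42% ± 0.789 and miR-23b-3p 5.99% ± 0.743. By mean level, miR-27a-3p ranked 33 among the 1098 miRNAs above 0 in any library, miR-23a-3p 59, miR-24-3p 82, miR-27b-3p 89 and miR-23b-3p 94. The mature arms are 21 to 23 bases long, so these levels need no correction for length. Capture of small RNAs into libraries can depend on their end sequences, and its part in the order of levels was not tested.

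miR-27a-3p, which represses GATA3 in mouse T helper cells and the adipogenic receptor PPARG in fat cells, had 2173, 2126 and 2249 CPM in the 0 h libraries. It had 1920.1, 2495 and 2192 CPM at 5 h and 2338, 2466 and 2459 CPM at 12 h. The 5 h libraries lay on both sides of the 0 h range, whereas the 3 libraries at 12 h all lay above those at 0 h. The difference at 12 h was small, with means of 2421 ± 72.2 CPM at 12 h and 2182 ± 62.0 CPM at 0 h, and it did not pass the test (log2 change 0.15, SE 0.11, edgeR adjusted p = 0.902).

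miR-23a-3p, the repressor of BLIMP-1, had 615, 642 and 602 CPM at 0 h, 675, 607 and 622 CPM at 5 h and 679.6, 616 and 576 CPM at 12 h. These ranges overlapped at every pair of times. Its log2 changes were 0.04 at 5 h and 0.01 at 12 h against 0 h, each with an SE of 0.12 (edgeR adjusted p = 0.996 and 0.992).

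miR-24-3p, a repressor of cell cycle genes such as MYC and E2F2 in human cells, had 326, 302 and 269 CPM at 0 h, 252, 235 and 307 CPM at 5 h and 277, 244 and 296 CPM at 12 h. By the scaling used here its mean was lower after activation, at 265 ± 37.8 CPM at 5 h and 272 ± 26.5 CPM at 12 h against 299 ± 28.97 CPM at 0 h, but replicates overlapped and neither difference passed. The log2 change was -0.18 at 5 h and -0.14 at 12 h (SE 0.15 for both, edgeR adjusted p = 0.996 and 0.974), and the mir-24-2 row gave -0.16 and -0.13. With upper quartile scaling, which raised the median of all rows, the change at 12 h was 0.02. The other 3p arms also depended on the processing. Over all alternatives run, the change at 12 h against 0 h was 0.09 to 0.31 for miR-27a-3p and -0.10 to 0.17 for miR-23a-3p. It was -0.16 to 0.17 for miR-27b-3p and -0.24 to 0.05 for miR-23b-3p.

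miR-27b-3p, the paralog of miR-27a-3p on chromosome 9, had 237, 251 and 183 CPM at 0 h, 218, 257 and 266 CPM at 5 h and 268, 207 and 206 CPM at 12 h. miR-23b-3p had 232, 199.8 and 214 CPM at 0 h, 246, 228 and 226 CPM at 5 h and 226, 199 and 177 CPM at 12 h. Neither was set apart at any time. The largest estimated change among the 3p arms was that of miR-23b-3p between the activated times, with 201 ± 24.9 CPM at 12 h and 233 ± 10.9 CPM at 5 h (log2 change -0.22, SE 0.14, edgeR adjusted p = 0.948).

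**Figure D2:**
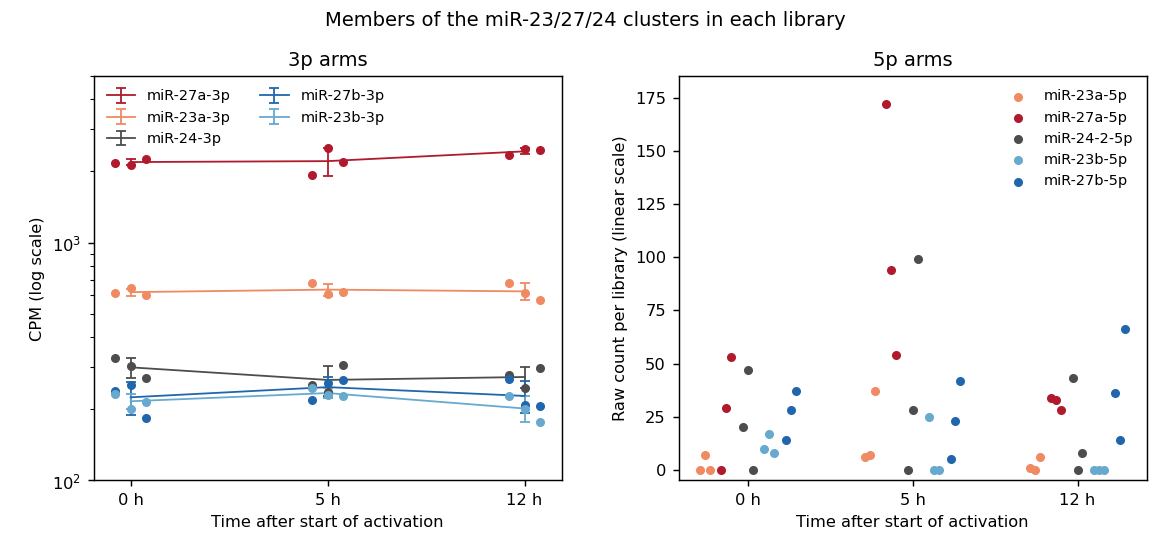
Left: CPM of the 3p arms in each library on a log scale, with the mean and SD of 3 replicates at 0 h, 5 h and 12 h. Right: raw counts of the 5p arms in each library on a linear scale. miR-27a-3p lies on top at 1920.1 to 2495 CPM and the 3 lowest 3p arms overlap, while the 5p arms scatter between 0 and 172 counts.

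Ordered by level, miR-27a-3p stood above miR-23a-3p in 9 of 9 libraries, with a median ratio of 3.53, and miR-23a-3p above miR-24-3p in 9 of 9, with a median ratio of 2.24. The ranges of these neighbours did not overlap. miR-24-3p and miR-27b-3p overlapped, with miR-24-3p higher in 8 of 9 libraries, and so did miR-27b-3p and miR-23b-3p, with miR-27b-3p higher in 7 of 9. For these neighbours the levels overlapped over libraries even where most libraries gave the same order, and the order itself was not tested.

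The first comparison asked whether the clusters responded 5 h after activation. No member passed: 0 of the 9 members that could be tested differed at 5 h from 0 h, where 1.57% of all 701 tested rows did (edgeR, Benjamini-Hochberg adjusted p of 0.05 as the threshold). At 12 h against 0 h, the count was again 0 of 9, with 1.43% of all rows called. Between 12 h and 5 h it was 0 of 9, against 0.571% of all rows, and testing the 3 times together gave 0 of 9, against 1.71%. An unadjusted p under 0.05 was reached by 0 of 9 members at 5 h, at 12 h and between 12 h and 5 h, against 5.99%, 7.28% and 6.13% of all rows in that order. DESeq2 and limma-voom also called 0 members. The member not tested was miR-23a-5p, which was too rare to pass the filter on low counts. Of the 9 tested members, 4 were 5p arms, whose log2 changes at 5 h against 0 h had SEs of 1.02 to 2.49. The counts of 0 of 9 therefore say little about the 5p arms.

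The data set limits on how far the 3p arms could have moved relative to the other miRNAs. Levels are scaled within the small RNA counts, so a change shared by all miRNAs would not be seen. Over the 6 rows of 3p arms, the 95% intervals of the fold change ran from 0.715 to 1.39 at 5 h against 0 h. At 12 h against 0 h they ran from 0.735 to 1.31, and at 12 h against 5 h from 0.700 to 1.29. A 2-fold change in either direction, relative to the other miRNAs, thus lay outside the interval of every 3p arm at every comparison. These intervals are not adjusted for the number of rows. In bulk RNA, fewer cells with a miRNA and less of it per cell cannot be told apart.

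**Figure D3:**
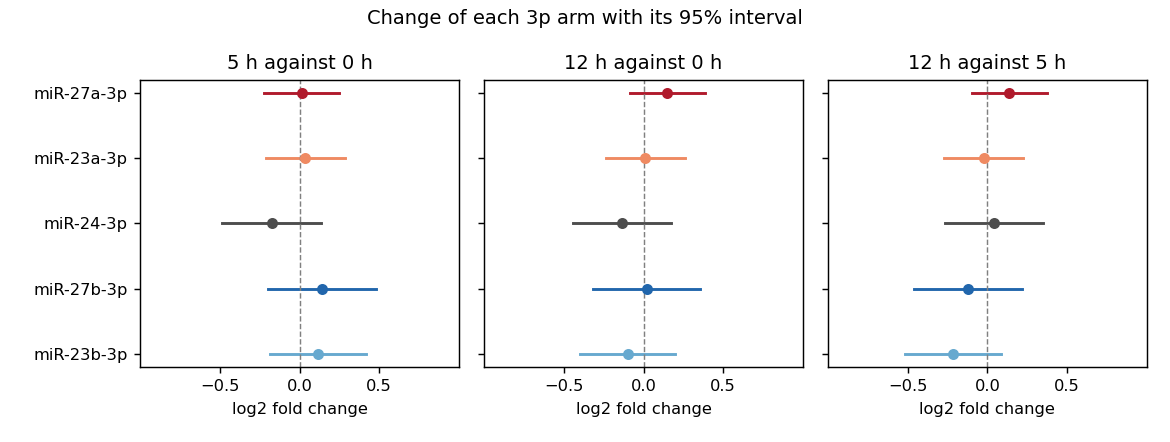
Log2 fold change (point) and 95% interval (line) of each 3p arm at 5 h against 0 h, 12 h against 0 h and 12 h against 5 h, from the fit over all rows; miR-24-3p is from the mir-24-1 row. Every interval includes 0, and together the intervals run from -0.515 to 0.480.

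Separation of replicates was counted for the members beside its share over all rows. The groups did not overlap for 0 of 9 members at 5 h against 0 h, where this held for 10.8% of all rows, and for 0 of 9 at 12 h against 5 h, where it held for 12.8%. At 12 h against 0 h they did not overlap for 2 of 9, against 12.1% of all rows. The 2 were miR-27a-3p, among 7.13% of rows that were higher in every 12 h library, and miR-23b-5p, among 4.99% that were lower in every one. miR-23b-5p had 0 counts at 12 h and passed the filter on low counts through its 0 h and 5 h libraries. With only 9 members, 2 of 9 is not read as a departure from the share over all rows. The median size of the log2 change at 5 h against 0 h was 0.11 for the 5 3p arms and 0.11 for the 114 other miRNAs with at least 100 CPM. At 12 h against 0 h it was 0.10 for the 3p arms and 0.13 for the 114 others, and at 12 h against 5 h 0.12 and 0.13.

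**Figure D4:**
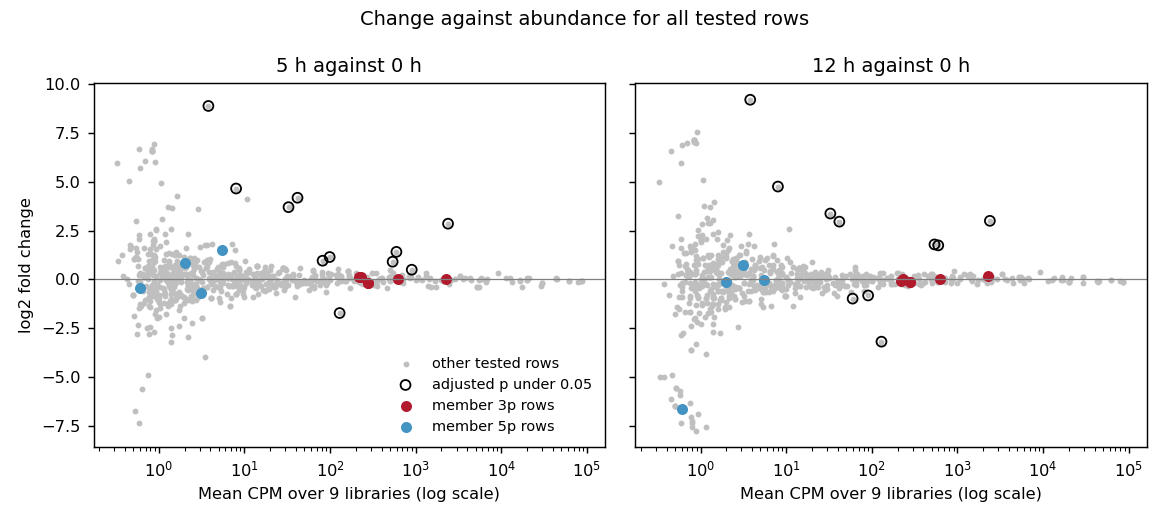
Log2 fold change against mean CPM (log scale) for all 701 tested rows at 5 h and 12 h against 0 h; 3p rows of the clusters are red, 5p rows blue, and circles mark rows with an adjusted p under 0.05 (11 at 5 h and 10 at 12 h). The red points lie near the zero line, while miR-23b-5p, at 0 in every 12 h library, lies among rare miRNAs at the lower left of the right panel.

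Variation between replicates differed among the members. The median coefficient of variation within a group was 2.98% for miR-27a-3p, 5.60% for miR-23a-3p and 7.52% for miR-23b-3p. It was 9.71% for miR-24-3p and 15.6% for miR-27b-3p, beside a median of 9.90% over the 114 other miRNAs with at least 100 CPM. By this measure miR-27b-3p varied most among the 3p arms. The median does not show the 5 h group of miR-27a-3p, which was more spread, at 2202 ± 288 CPM. Its SD was 62.0 CPM at 0 h and 72.2 CPM at 12 h (n = 3 each).

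Ratios within a library do not depend on scaling and show the balance between clusters. miR-23a-3p held 74.2% ± 1.87 of the miR-23 counts without activation, 73.1% ± 0.361 at 5 h and 75.7% ± 0.773 at 12 h (SD, n = 3 each). miR-27a-3p held 90.7% ± 1.59 of the miR-27 counts without activation, 89.9% ± 0.738 at 5 h and 91.4% ± 1.47 at 12 h. The chromosome 19 paralogs therefore held most of the miR-23 and miR-27 counts in every library, and a larger share of miR-27 than of miR-23. The larger shift was in the share of miR-23a-3p, which was 2.58 percentage points higher at 12 h than at 5 h, with no overlap between the groups (exact two-sided permutation p = 0.1, the smallest that 3 against 3 libraries can give; 0.75 after adjustment over 15 tests).

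The balance of miR-27 to miR-23 differed between the clusters. miR-27a-3p was 3.53 ± 0.212 times as abundant as miR-23a-3p at 0 h, 3.49 ± 0.633 times at 5 h and 3.90 ± 0.423 times at 12 h. On chromosome 9 the 3p arms were nearly level, with miR-27b-3p at 1.04 ± 0.202 times miR-23b-3p at 0 h, 1.06 ± 0.156 at 5 h and 1.13 ± 0.0791 at 12 h. Within a library, the chromosome 19 ratio was 2.64 to 4.37 times the chromosome 9 ratio, and above it in 9 of 9 libraries. miR-24-3p, to which both clusters contribute, stood at 0.358 ± 0.0281 of the summed miR-23 3p arms at 0 h, 0.306 ± 0.0489 at 5 h and 0.333 ± 0.0527 at 12 h. Over these 5 quantities and 3 comparisons, the adjusted exact permutation p was 0.75 or more.

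**Figure D5:**
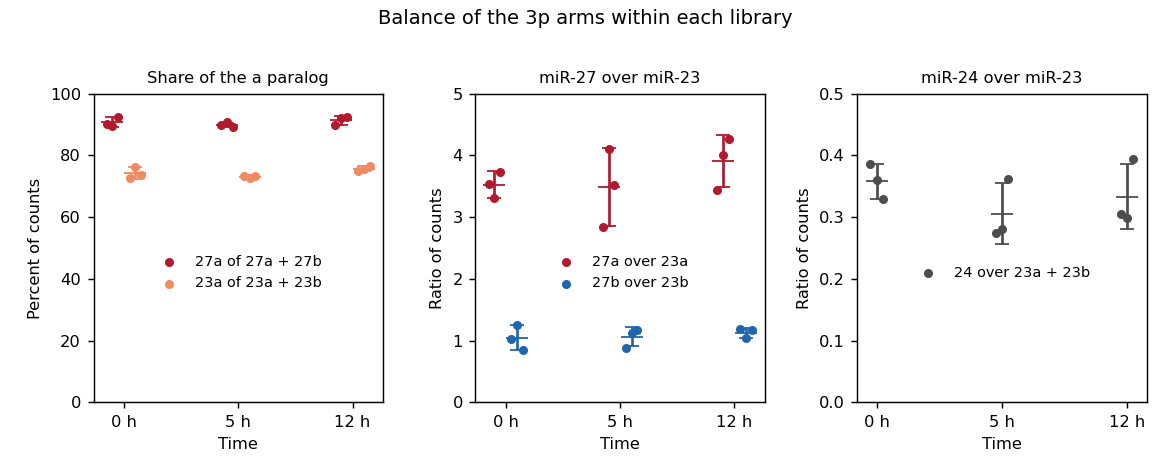
Count ratios between 3p arms in each library (points) with the mean and SD of 3 replicates (bars) at 0 h, 5 h and 12 h: the percentage of the a paralog, miR-27 over miR-23 in each cluster, and miR-24 over both miR-23 paralogs. The a paralog holds 72.6% to 76.5% of miR-23 and 89.2% to 92.5% of miR-27, and the ratio of miR-27 to miR-23 is 2.85 to 4.27 on chromosome 19 and 0.855 to 1.26 on chromosome 9.

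Counts were also summed over all miRNAs with the same seed, each miRNA once. Their CPM runs higher than that of single rows because repeated rows and miRNAs with no RefSeq seed are left out of the total. Of 1912 seeds, the miR-27 seed ranked 17, the miR-23 seed 34 and the miR-24 seed 51. The miR-27 seed had 3787 ± 99.2 CPM at 0 h, 3953 ± 595 CPM at 5 h and 4270 ± 130 CPM at 12 h. The miR-23 seed had 1314 ± 8.61, 1397 ± 64.8 and 1334 ± 174 CPM at the 3 times. The miR-24 seed had 470.1 ± 36.8, 429 ± 85.0 and 439 ± 37.1 CPM. None of the 3 passed in a fit over 475 seed families, of which 1.89% passed at 5 h, 1.89% at 12 h, 0.842% between 12 h and 5 h and 2.11% among the 3 times. The lowest adjusted p was 0.914, for the miR-27 seed at 12 h against 0 h (log2 change 0.17, SE 0.12, edgeR). The other miRNAs of the table with these seeds were rare: miR-23c, with the miR-23 seed, averaged 0.409 CPM, and miR-9985, with the miR-27 seed, 0.0566 CPM. miR-128-3p, whose seed is that of miR-27 moved by a base, averaged 263 CPM and did not pass at 5 h or 12 h (edgeR adjusted p = 0.996 and 0.832).

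The 5p arms are the strands that Argonaute proteins mostly discard, and they made up 0.325% ± 0.167 of the counts of the members (SD, 9 libraries). Summed over libraries, 3p reads outnumbered 5p reads 1027-fold for miR-23a, 472-fold for miR-27a, 381-fold for miR-23b and 93.9-fold for miR-27b. The 5p arms of the miR-24 hairpins differ between the clusters in 6 of 22 bases and so could tell the clusters apart:
hsa-miR-24-2-5p: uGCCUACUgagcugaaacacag
hsa-miR-24-1-5p: uGCCUACUgagcugauaucagu

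miR-24-2-5p, from chromosome 19, had 20, 47 and 0 counts at 0 h, 0, 28 and 99 at 5 h and 43, 0 and 8 at 12 h. The 99 counts were in replicate 3 of 5 h, the library that stood out for miR-122-5p and miR-145-5p. miR-24-1-5p, which is not among the chosen members, had 25, 0 and 9 counts at 0 h, 11, 14 and 33 at 5 h and 8, 22 and 0 at 12 h. Over the 9 libraries the totals were 245 counts for chromosome 19 and 122 for chromosome 9. Both scattered from library to library, at 0 in some replicates of a time and well above it in others, and no difference between times could be read at this depth.

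miR-27a-5p had 0, 29 and 53 counts at 0 h, 172, 94 and 54 at 5 h and 34, 33 and 28 at 12 h. Its mean was 9.62 ± 6.44 CPM at 5 h, against 3.43 ± 4.17 CPM at 0 h, and the groups overlapped (log2 change 1.52, SE 1.02, edgeR adjusted p = 0.918). Leaving out replicate 1 of 5 h gave an estimate of 0.86. Leaving out replicate 1 of 0 h gave 0.93, and leaving out replicate 3 of 0 h gave 3.11. miR-27b-5p had 14, 28 and 37 counts at 0 h, 5, 23 and 42 at 5 h and 36, 14 and 66 at 12 h, also with overlap. miR-23a-5p, the rarest of the chromosome 19 arms, had 0, 7 and 0 counts at 0 h, 6, 7 and 37 at 5 h and 1, 0 and 6 at 12 h. The 37 counts were in replicate 3 of 5 h, the library that stood out for miR-122-5p and miR-145-5p.

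miR-23b-5p was the only member at 0 counts in all libraries of a time. It had 10, 17 and 8 counts at 0 h, 25, 0 and 0 at 5 h and 0 counts in all 3 libraries at 12 h. Its sequence differs from that of miR-23a-5p in 7 of 22 bases:
hsa-miR-23b-5p: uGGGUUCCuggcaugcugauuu
hsa-miR-23a-5p: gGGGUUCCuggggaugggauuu

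At 0 h 35 counts were summed, and a floor of 3 counts was set over the 12 h group. By counting error alone, this put the fold of 0 h over 12 h at a limit of 10.5 or more. The limit was set after the counts of 0 were seen, and it takes the 35 counts as exact. It leaves out the spread between replicates, which ran from 0 to 25 counts within 5 h, so a fall at 12 h is not read from this limit. Without replicate 1 of 12 h this limit was 6.04-fold, and without replicate 2 of 12 h it was 6.55-fold. The difference did not pass the test (edgeR adjusted p = 0.691), whose fitted log2 change depends on the prior count. The 3p arm of the same hairpin was at 201 ± 24.9 CPM at 12 h and 215 ± 16.2 CPM at 0 h. Molecular identifiers are not mentioned in the sources used here, and floors and limits cover counting error only.

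The ratio of 3p to 5p arm was tested for the 5 cluster hairpins in which both arms could be tested, within a fit over 165 hairpins. None of the 165 passed at any comparison (0% by limma), while 5.45% had an unadjusted p under 0.05 at 5 h, 6.67% at 12 h, 7.27% between 12 h and 5 h and 7.88% among the 3 times. The hairpin mir-23b had the lowest p of the cluster hairpins, with a log2 ratio of 12.0 ± 0.743 at 12 h and 7.67 ± 0.656 at 0 h (SD). Its 5p arm was at 0 in every 12 h library and passed the filter on low counts through its 0 h and 5 h libraries. The value at 12 h and its SD thus came from the 3p counts and the pseudocount alone. No change in the use of arms is read from it. The difference of 4.30 (SE 1.53) did not pass (limma adjusted p = 0.515). Without replicate 1 of 5 h the limma adjusted p was 0.0202 at 12 h and 0.0286 at 5 h, each against 0 h. With that library left out, miR-23b-5p was at 0 in every activated library, so the spread of the ratio there came from the 3p counts and the pseudocount alone, and these p-values are not read as calls. Values against a group at 0 depend on the pseudocount, and with a pseudocount of 5 in place of 0.5 the change at 12 h was 1.46 in place of 4.30.

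MIR24-1 overlaps another miRNA gene, MIR3074, on the opposite strand, and 20 bases of miR-3074-5p are complementary to miR-24-3p. miR-3074-5p averaged 2.25 CPM and miR-3074-3p 4.11 CPM, against 279 CPM for miR-24-3p. Neither passed at any time. Whether counting used the strand is not given in the sources used here.

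Across the 9 libraries, the miRNAs of at least 100 CPM whose log2 CPM followed the members most closely were miR-744-5p for miR-23a-3p (r = 0.81) and for miR-23b-3p (r = 0.85), miR-19a-3p for miR-27a-3p (r = 0.77), miR-29b-3p for miR-27b-3p (r = 0.89) and miR-532-5p for miR-24-3p (r = 0.80). Each was the highest Pearson r of 114 candidates, none of them a member. Between 3p arms of the members, r ran from -0.58 (miR-23a-3p with miR-27a-3p) to 0.61 (miR-23a-3p with miR-23b-3p). For miR-23b-3p with miR-27b-3p it was 0.38. The points share libraries, depth and scaling, and the values are given as a description.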

How the data were processed

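The deposited table gives the authors' raw counts per library for each pair of precursor and mature miRNA; the submitters' processing notes name GRCh38.p13 and DESeq2. Neither aligner nor counting tool is given in the sources used here. The deposited log2 values (430 rows, 6 of the members) are the authors' normalised counts on a log2 scale and served only in an alternative.

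Groups came from the sample labels. The members and lists were chosen with earlier results of these data known. Rows passing filterByExpr (minimum count 10, minimum total 15; 701 of 1214 rows above 0) were scaled by TMM and fitted in edgeR 4.0.16 (R 4.3.3) by quasi-likelihood, with 1 mean per time over 9 libraries and Benjamini-Hochberg adjustment at 0.05 over all rows; SE and intervals derive from that test. The series' design calls the replicates biological without saying how they were separated, and p-values measure the spread between libraries. Seeds were available for 2365 of 2654 names. Seed sums were fitted likewise, and arm ratios (pseudocount 0.5) with limma 3.58.1. Within-library ratios used exact two-sided permutation tests (scipy 1.17.1). All members were named, beside fixed neighbours, same-seed miRNAs, activation miRNAs and cell type markers; for likeness, non-members of at least 100 CPM were ranked by Pearson r. The fits were tested on simulated data. Replicates differed by more than sampling noise (lowest chi-square per degree of freedom 66.2).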

Additional observations from a re-analysis of the deposited data

How the results depend on the processing

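Members called numbered 0 in every comparison under all alternatives run: other scalings (library totals, RLE, upper quartile), no filter or a stricter one, DESeq2 1.42.0, limma-voom, fits to 2 groups alone, a replicate block, 1 row per mature miRNA, the log2 values as deposited, and leaving out single libraries. Leaving out the 2 shallowest libraries and the 3-count limit for miR-23b-5p were chosen after seeing the data. Among 375 alternative log2 changes of 3p arms, the sign differed in 57, with a size of at most 0.16, and the values ran from -0.33 to 0.31 with adjusted p of 0.393 or more. Among 229 of 5p arms it differed in 18, with a size of up to 2.48, and a value moved by up to 6.22. Upper quartile scaling raised the median of all rows by 0.16 at 12 h against 0 h and against 5 h. The labels do not say that replicate numbers mark a shared culture or day, and same-numbered libraries correlated at -0.03 to 0.06 in their deviations from group means over all tested rows and at -0.57 to 0.62 over rows of at least 100 CPM, with no common sign.

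Counts over all rows moved more. With no filter 17 rows passed at 5 h against 0 h (11 as reported), 12 at 12 h against 5 h (4) and 21 among the 3 times (12). With the replicate block 11 passed at 12 h against 5 h and 21 among the 3 times. With only the 2 groups 6 passed at 12 h against 0 h (10). Leaving out single libraries gave 3 to 10 at 12 h against 5 h (10 without replicate 1 of 12 h) and 7 to 15 among the 3 times (7 without replicate 2 of 12 h).

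Leaving out single libraries, the miR-27 seed ran from -0.10 to 0.19 at 5 h against 0 h and -0.015 to 0.21 at 12 h against 5 h, and the miR-24 seed from -0.32 to -0.055 and -0.044 to 0.22. The mir-23b arm ratio ran from 1.73 to 4.84 at 5 h, 4.00 to 4.71 at 12 h and -0.54 to 2.57 between them. With a pseudocount of 5 it was 1.09 at 5 h and 1.46 at 12 h. Its 12 h values rest on a 5p arm at 0 and so on the pseudocount. The mir-24-1 ratio ran from -2.80 to -0.10 at 5 h and -1.49 to 1.63 at 12 h, and the mir-27a ratio from -4.85 to -0.89 and -3.40 to 0.57. For these the cause was not tested. Depth limits the 5p arms, which held at most 172 counts in a library.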
